A study of Rattus norvegicus with 6 samples.

Results

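Chemokines are small secreted proteins that attract leucocytes along a gradient, and interleukins are the secreted signals by which leucocytes and tissue cells act on each other. Chemokines act through G protein-coupled receptors, whereas interleukins assemble a specific receptor chain with a shared signalling chain, and soluble antagonists and decoy receptors compete with them. In pancreatic islets, interleukin-1β and the chemokines made by endocrine cells and resident macrophages are best known from diabetes, where they accompany inflammation and loss of beta cells.

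The genes described here were chosen by symbol: every gene whose name starts with Ccl, Cxcl, Cx3cl, Xcl or Il followed by a digit. The array held probes for 90 such genes of 13888 genes named through RefSeq mRNA accessions, namely 18 CC chemokines, 13 CXC, CX3C or XC chemokines, 29 interleukins, 24 receptors or receptor chains, and 6 inhibitors or decoy receptors. The samples were pancreatic islets isolated with collagenase from male Wistar rats killed with CO2, with 3 arrays of rats aged 12 months and 3 arrays of rats aged 3 months. There was no other treatment or genotype. The comparison asked how islet transcripts differ with age. As many rats of each age as arrays were used, but no source says in words that each array held the RNA of 1 rat, so p-values measure the spread between these arrays.

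All values are log2 of the background-subtracted spot signal after quantile normalization, and differences are 12 months minus 3 months. Each age was read in a scan of its own, which leaves scanning and age as 2 things that cannot be told apart. Negative control spots had median signals of 89.5 to 91 scanner units on the 12-month arrays and 29.5 to 31 on the 3-month arrays. Between 50 and 64 of the 90 genes were well above background on the 12-month arrays, and between 70 and 73 on the 3-month arrays. Testing required a signal above background on 3 or more arrays, a condition met by 70 of the 90 genes and by 11188 of the 13888 genes. Of these 70 genes, 45 were above background on all 6 arrays, and 7 were above background on all of the 3-month arrays and none of the 12-month arrays.

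The secreted interleukins were the dimmest class. Of 29, 16 were tested and 8 were above background on no array, among them *Il5*, *Il9* and *Il21*, which are products of activated T cells. *Il6* was above background only on 12-month array 1. Of the 24 receptor genes, 18 were tested, of 31 chemokines 30 were, and all 6 inhibitors or decoys were. The genes for interleukin-1 receptor type 1 and for the first chain of the interleukin-22 receptor were not analysed here, because no probe matched them by accession.

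At an adjusted p under 0.05 in limma, 4 of the 70 genes (5.71%) were higher at 12 months, where 4.88% of all tested genes were, and 2 genes (2.86%) were lower, where 2.98% of all were. A second, looser rule, called the fold criterion here, took the limits of the study (more than a 2-fold difference and an unadjusted p under 0.05) with the p of limma in place of that of the study's test. By the fold criterion 7 of 70 genes were higher and 8 (11.4%) lower, against 9.81% and 9.64% of all tested genes. One of the 8, *Cxcl9*, was above background on no 12-month array. With the p of the test named in the study's methods, taken as unpaired, 6 genes were higher and 6 lower on the same values. Of all tested probes 15.3% passed there. The study's lists of changed genes name the paired form of that test. By the paired form 2 genes were higher and 4 lower, where 8.67% of all tested probes passed. The arrays of the 2 ages did not overlap for 7 of 70 genes that were higher and 9 (12.9%) that were lower, against 17.0% and 22.1% of all tested genes. As a class these genes were called about as often as all genes, and the median difference was -0.19 against -0.13 over all tested genes. The 6 calls at the adjusted threshold were *Il6r*, *Il1rapl2*, *Xcl1* and *Il20ra*, which were higher, and *Il22ra2* and *Ccl27*, which were lower. Without 12-month array 3 the number of adjusted calls was 0, without 12-month array 1 or 3-month array 1 it was 1, without 3-month array 2 it was 2, and without either of the other arrays it was 5. With each array shifted to a common 75th percentile in place of quantile normalization, 6 genes were higher and 14 lower by the fold criterion, and 27.4% of all tested probes passed it. Under that shift the median of all tested genes was -0.34, so that more genes lie below 0 there.

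**Figure D1:**
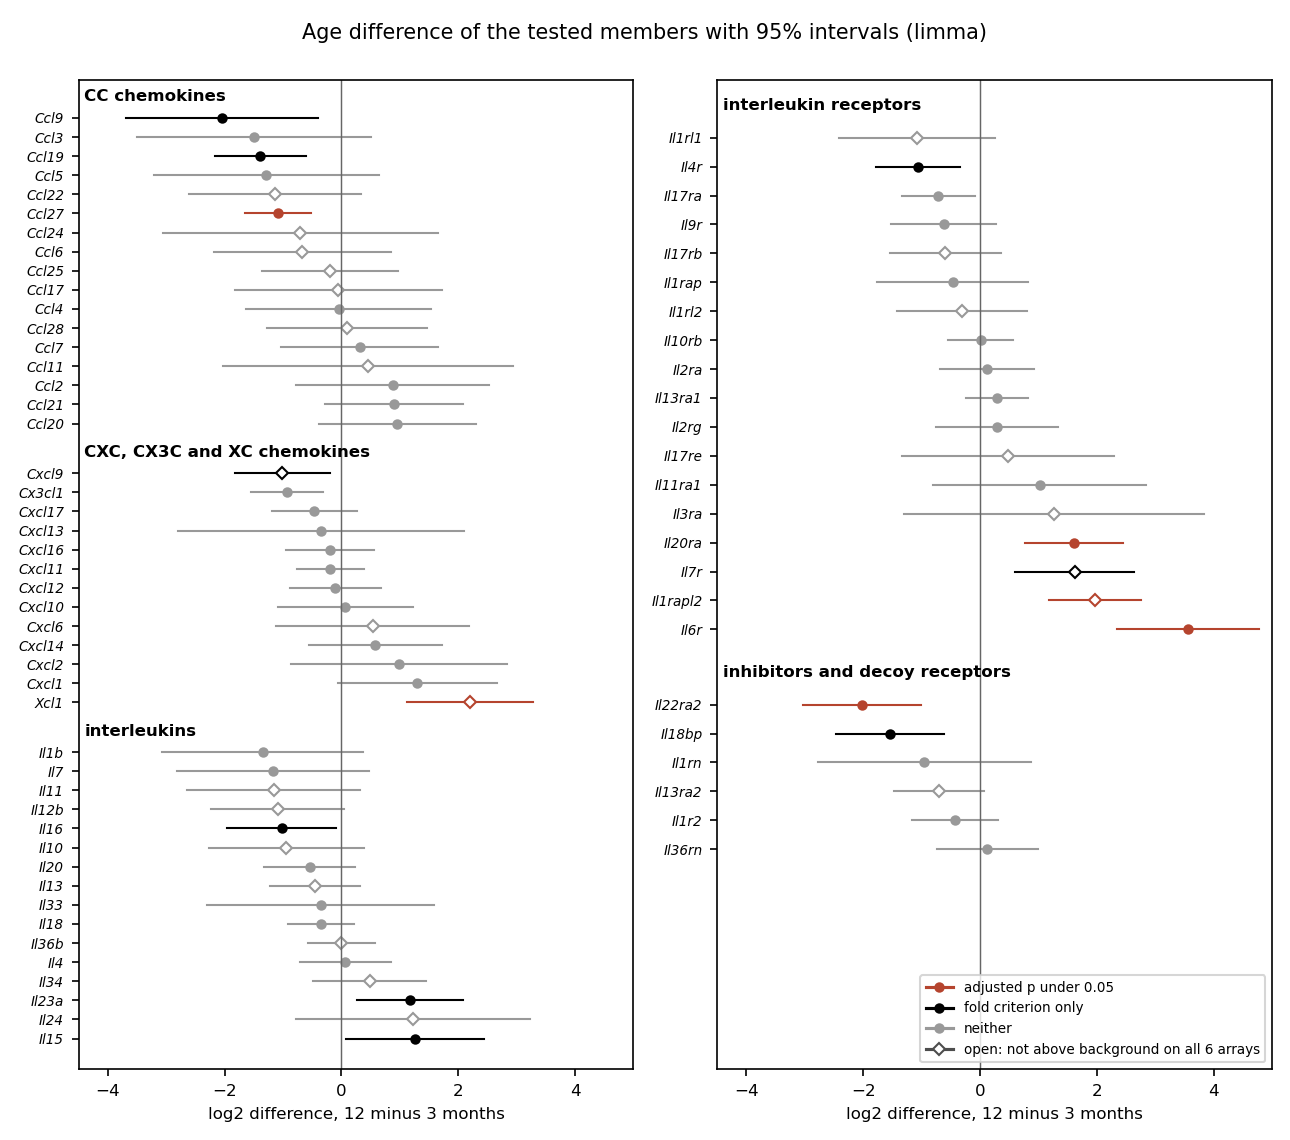
Age difference of each of the 70 tested genes on the log2 scale (12 months minus 3 months), grouped by role, with 95% intervals from limma. Red marks the 6 genes with an adjusted p under 0.05, black the other genes past the fold criterion, and open symbols genes that were not above background on all 6 arrays. The interval of *Il6r* lies farthest from 0, and most other intervals cross it.

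The receptors held 3 of the 6 adjusted calls, all higher at 12 months. *Il6r* encodes the chain that binds interleukin-6 and hands it to the shared signalling chain gp130. Its signals were 11.23, 12.06 and 12.12 on the 12-month arrays and 9.18, 8.20 and 7.33 on the 3-month arrays. Every 12-month array lay above every 3-month array by more than the SD of either age, and the difference was 3.57 (limma SE 0.51, 95% interval 2.35 to 4.78, adjusted p = 0.0145), an 11.8-fold rise. This gene kept an adjusted p under 0.05 without any single array except 12-month array 3, where the adjusted p was 0.0566. With 20 ways to divide the arrays, an exact permutation test cannot go under p = 0.1, the value any gene without overlap reaches.

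*Il20ra* encodes a chain shared by the receptors for interleukins 19, 20 and 24. It read 11.17, 11.30 and 10.90 at 12 months and 8.94, 9.43 and 10.16 at 3 months, without overlap. The difference was 1.61 (limma SE 0.35, adjusted p = 0.0420), a 3.06-fold rise. It passed the adjusted threshold without 3-month array 3 and lost it without any other single array. Of its ligands, *Il20* differed by -0.54 (limma adjusted p = 0.287) and *Il24* by 1.23 (limma adjusted p = 0.339).

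*Il1rapl2*, a relative of the interleukin-1 receptor accessory protein known mainly from neurons, read 5.55, 5.07 and 5.67 at 12 months and 3.02, 3.38 and 4.0 at 3 months. The difference was 1.96 (limma SE 0.33, adjusted p = 0.0219), but the gene was above background on 2 arrays of each age, and with normexp background correction the difference was 0.53 (limma adjusted p = 0.0658). With the 75th percentile shift it was 1.38 (limma adjusted p = 0.0563), so that both settings ended the call. The call held without 12-month array 2 or 3-month array 3 and was lost without any of the others. *Il7r*, the interleukin-7 receptor chain of lymphocytes, read 6.30, 5.79 and 5.45 against 3.68, 3.95 and 5.06 and was also above background on 2 arrays of each age. Its difference was 1.62 (limma adjusted p = 0.0633) and 0.57 with normexp.

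Among receptor chains that were lower, *Il4r*, the chain that binds interleukin-4 and takes part in the receptor for interleukin-13, read 9.51, 8.83 and 9.14 at 12 months and 10.64, 10.14 and 9.90 at 3 months. The groups did not overlap and the difference was -1.06 (limma SE 0.30, adjusted p = 0.0731), which passed the fold criterion only. *Il17ra*, which all interleukin-17 receptors share, differed by -0.71 (limma adjusted p = 0.121) and also without overlap, from 13.06 ± 0.21 at 3 months to 12.35 ± 0.30 at 12 months (SD, n = 3). *Il13ra1*, the partner of *Il4r*, was at 12.46 ± 0.11 and 12.17 ± 0.17 (SD, n = 3), a difference of 0.29 (limma adjusted p = 0.395).

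*Il2rg*, the common γ chain used by the receptors for interleukins 2, 4, 7, 9, 15 and 21, had a signal of 15.11 to 16.67 on all arrays. Its difference of 0.29 (limma adjusted p = 0.664) became -0.06 with the 75th percentile shift, so that no direction is given. *Il1rap*, the signalling partner of the interleukin-1 receptor, differed by -0.47 (limma SE 0.55), with an interval from -1.76 to 0.83. *Il10rb* differed by 0.01, with an interval from -0.54 to 0.56, the difference nearest to 0 among these receptors. *Il1rl1*, the receptor for interleukin-33, was above background on no 12-month array. The remaining tested receptors, *Il9r*, *Il17rb*, *Il1rl2*, *Il2ra*, *Il17re*, *Il11ra1* and *Il3ra*, had differences from -0.62 to 1.26 and none passed either threshold.

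Inhibitors and decoy receptors had negative differences for 5 of 6 genes, where 56.5% of all tested genes had one. Their median was -0.83, and 1 passed the adjusted threshold. That gene was *Il22ra2*, a soluble receptor that binds interleukin-22 and blocks it. It read 5.37, 5.80 and 5.56 at 12 months and 6.97, 7.31 and 8.51 at 3 months, without overlap. The difference was -2.02 (limma SE 0.42, adjusted p = 0.0373), a 4.06-fold fall, which kept the call without 12-month array 2 and lost it without any other single array. With normexp the difference was -1.26 and the call was lost (limma adjusted p = 0.0514). In the rat genome *Il22ra2* lies next to *Il20ra* on chromosome 1 with 0 coding genes between them, and the 2 neighbours changed in opposite directions.

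*Il18bp*, which encodes the secreted protein that neutralizes interleukin-18, read 9.23, 10.55 and 9.92 at 12 months and 11.37, 11.13 and 11.81 at 3 months. The groups did not overlap and the difference was -1.54 (limma SE 0.39, adjusted p = 0.0569), a 2.91-fold lower level that passed the fold criterion only. Its target *Il18* was at 9.62 ± 0.19 at 12 months and 9.97 ± 0.17 at 3 months (SD, n = 3), a difference of -0.35 (limma adjusted p = 0.330).

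*Il1rn*, the interleukin-1 receptor antagonist, read 8.83, 8.27 and 8.37 at 12 months and 9.06, 8.03 and 11.24 at 3 months. The groups overlapped, 3-month array 3 alone lay far above the rest, and the difference of -0.95 (limma adjusted p = 0.408) was smaller than the 3-month SD of 1.64. *Il1r2*, the decoy receptor for interleukin-1, differed by -0.43 (limma adjusted p = 0.359), and *Il13ra2*, the decoy for interleukin-13, by -0.70 (limma adjusted p = 0.183). *Il13ra2* was above background on 1 of the 12-month arrays. *Il36rn*, the antagonist of the interleukin-36 receptor, was at 0.13 (limma adjusted p = 0.822) and at -0.07 with the 75th percentile shift.

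**Figure D2:**
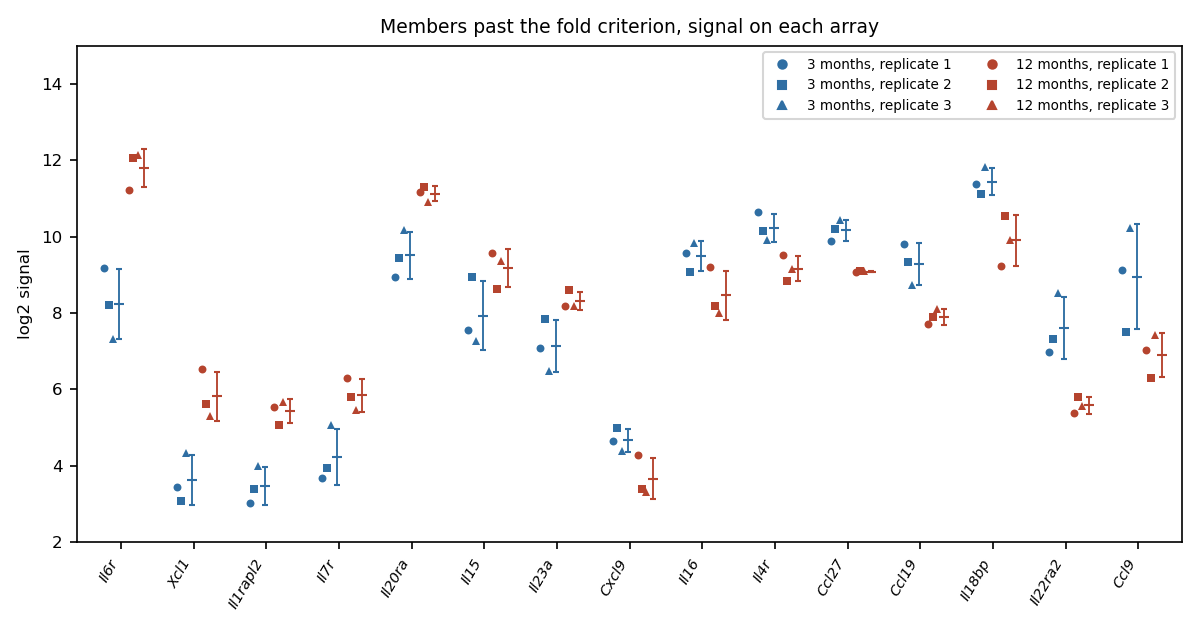
Log2 signal on each array for the 15 genes past the fold criterion, ordered from the largest rise to the largest fall, with 3 months in blue and 12 months in red. Symbols give the replicate, and the bar beside them the mean and SD of 3 arrays. The nearest arrays of the ages read 11.23 and 9.18 for *Il6r*, whereas the ages of *Il15* and *Il16* overlap.

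Among the interleukins, 0 passed the adjusted threshold in limma and 3 of 16 had an unadjusted p under 0.05, where 30.6% of all tested genes had one. *Il23a*, the p19 chain of interleukin-23, read 8.18, 8.59 and 8.18 at 12 months and 7.09, 7.85 and 6.49 at 3 months, a difference of 1.18 without overlap (limma SE 0.38, adjusted p = 0.0928). *Il15*, which maintains natural killer and memory T cells, was at 9.18 ± 0.50 and 7.92 ± 0.90 (SD, n = 3). Its difference was 1.26 (limma adjusted p = 0.138), and 3-month array 2 at 8.95 lay above 12-month array 2 at 8.62. *Il16*, which attracts T cells and is released from a larger precursor, was at 8.46 ± 0.64 and 9.49 ± 0.39 (SD, n = 3), and differed by -1.02 (limma adjusted p = 0.130). All of these passed the fold criterion only.

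*Il1b*, the main inflammatory signal of macrophages, read 10.01, 8.04 and 7.84 at 12 months and 10.10, 8.91 and 10.92 at 3 months. The 2 lowest values were 12-month arrays, but 12-month array 1 lay within the 3-month range. The difference was -1.35 (limma SE 0.72, adjusted p = 0.235), with an interval from -3.07 to 0.37. *Il33*, an alarm signal held in the nuclei of stromal and endothelial cells, read 12.90, 10.13 and 9.70 at 12 months and 11.73, 10.89 and 11.16 at 3 months. Its difference of -0.35 (limma adjusted p = 0.781) was smaller than the 12-month SD of 1.74, and it was 0.25 without 12-month array 3, so that no direction is given. *Il7*, a growth factor for lymphocytes, was at 10.60 ± 0.66 and 11.77 ± 1.34 (SD, n = 3) with a limma adjusted p of 0.276, and its highest value, 13.31, came from 3-month array 1 alone. *Il10*, an anti-inflammatory interleukin, differed by -0.94 (limma adjusted p = 0.275) and was above background on 2 of 3 12-month arrays.

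For the interleukins near the detection limit no fold is given beyond a bound. *Il11* and *Il12b* were above background on all 3-month arrays and no 12-month array, and so were tested through the 3-month arrays alone. Their bounds, which compare means only, were 1.02-fold and 1.07-fold lower at 12 months. The ages of both genes overlapped, so that no direction is given. The lowest log2 signal called above background was 4.26 to 5.13 on the 12-month arrays and 2.89 to 3.17 on the 3-month arrays, so a gene could be detected at 3 months and missed at 12 months at the same level. *Il13*, *Il17rb* and *Il1rl1* were likewise above background at 3 months alone, and no bound above 1 could be given for them.

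The CC chemokines attract monocytes, lymphocytes and eosinophils, and 17 of 18 were tested. *Ccl27*, a ligand of *Ccr10* best known from skin, read 9.07, 9.08 and 9.09 at 12 months and 9.88, 10.19 and 10.43 at 3 months. The difference was -1.08 (limma SE 0.24, adjusted p = 0.0433), a 2.12-fold fall without overlap that lost the adjusted threshold without any single array (limma adjusted p from 0.0594 to 0.152). The 12-month values were unusually close together, with an SD of 0.0068 (n = 3), the smallest at either age among the 45 genes above background on all arrays. *Ccl19*, which guides dendritic and T cells through *Ccr7*, read 7.70, 7.88 and 8.11 at 12 months and 9.81, 9.33 and 8.72 at 3 months. Its difference of -1.39 (limma SE 0.33, adjusted p = 0.0504) was 2.61-fold, also without overlap, and passed the fold criterion only. *Ccl21*, the other ligand of *Ccr7*, differed by 0.91 (limma adjusted p = 0.243). *Ccl27* and *Ccl19* are neighbours on chromosome 5, with *Il11ra1* on the other side of *Ccl27* at a difference of 1.02 (limma adjusted p = 0.376).

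*Ccl9*, a macrophage chemokine of rodents that binds *Ccr1*, read 7.02, 6.28 and 7.41 at 12 months and 9.13, 7.50 and 10.23 at 3 months. The nearest arrays of the ages read 7.41 and 7.50, and the difference was -2.05 (limma SE 0.69, adjusted p = 0.101), past the fold criterion only. *Ccl9* is one of 5 chemokine genes that follow each other on chromosome 10 with 0 coding genes between them, in the order *Ccl5*, *Ccl9*, *Ccl6*, *Ccl3* and *Ccl4*. Their differences were -1.28, -2.05, -0.67, -1.50 and -0.05. The limma adjusted p-values of the other 4 ran from 0.255 to 0.966. In the second group on that chromosome, *Ccl2*, *Ccl7* and *Ccl11*, which attract monocytes and eosinophils, the differences were 0.88, 0.31 and 0.46, with limma adjusted p-values from 0.401 to 0.777.

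*Ccl2*, the chief monocyte attractant and a product of stressed beta cells, read 11.27, 9.20 and 9.29 at 12 months and 8.65, 8.36 and 10.11 at 3 months. The groups overlapped through 3-month array 3, and 12-month array 1 stood above the other 12-month arrays. *Ccl5*, a T cell attractant, read 10.05, 8.73 and 6.67 at 12 months and 10.18, 9.23 and 9.89 at 3 months. *Ccl3* read 10.08, 8.27 and 7.24 at 12 months and 9.87, 8.95 and 11.26 at 3 months. In both genes 12-month array 1 lay among the 3-month arrays, and the SDs at 12 months were 1.70 and 1.44 (n = 3). *Ccl20*, which attracts cells bearing *Ccr6*, differed by 0.96 (limma adjusted p = 0.273). *Ccl22* was above background on no 12-month array, with a bound between means of 1.07-fold lower. Its ages overlapped, so that no direction is given. The other CC chemokines tested, *Ccl4*, *Ccl6*, *Ccl17*, *Ccl24*, *Ccl25* and *Ccl28*, had differences from -0.70 to 0.10.

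The CXC, CX3C and XC chemokines attract neutrophils or T cells according to family, and all 13 were tested. *Xcl1*, made by activated T and natural killer cells for dendritic cells bearing *Xcr1*, read 6.53, 5.61 and 5.31 at 12 months and 3.43, 3.07 and 4.35 at 3 months, without overlap. The difference was 2.20 (limma SE 0.45, adjusted p = 0.0361), but the gene was above background on 2 of the 12-month and 1 of the 3-month arrays. The call was lost with normexp, at a difference of 0.69 (limma adjusted p = 0.0825), and with the 75th percentile shift, at 1.68 (limma adjusted p = 0.0792). It held without 12-month array 2 or 3-month array 3 and was lost without any of the others. *Cx3cl1*, the membrane-bound chemokine fractalkine of endothelial and endocrine cells, read 10.81, 10.30 and 10.70 at 12 months and 11.79, 11.48 and 11.34 at 3 months. Its difference of -0.93 (limma SE 0.26, adjusted p = 0.0692) fell just short of both thresholds at 1.91-fold, although the groups did not overlap.

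The chemokines of neutrophils are encoded side by side, with *Cxcl2* and *Cxcl1* as direct neighbours on chromosome 14. *Cxcl1* read 9.65, 8.56 and 7.72 at 12 months and 6.75, 7.13 and 8.15 at 3 months. *Cxcl2* read 9.25, 7.66 and 7.63 at 12 months and 6.55, 6.21 and 8.82 at 3 months. Both were highest on 12-month array 1 and, at 3 months, on array 3, and the differences of 1.30 (limma adjusted p = 0.168) and 0.99 (limma adjusted p = 0.40) did not pass. *Cxcl6* was at 0.54 (limma adjusted p = 0.609).

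The interferon-induced ligands of *Cxcr3* form another row on chromosome 14, *Cxcl11*, *Cxcl10* and *Cxcl9*. *Cxcl10* read 11.26, 10.55 and 10.01 at 12 months and 9.90, 10.33 and 11.39 at 3 months. The ages overlapped throughout, at a difference of 0.07 with an interval from -1.09 to 1.22. *Cxcl11* differed by -0.19, with an interval from -0.76 to 0.38. *Cxcl9* passed the fold criterion at -1.01 (limma adjusted p = 0.101). It entered the test through the 3-month arrays alone, since it was above background on no 12-month array. No bound above 1 could be given, and with normexp the difference was -0.15.

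*Cxcl12*, which holds progenitor cells and lymphocytes in tissues through *Cxcr4*, was measured by 3 probes. They differed by -0.11, -0.09 and 0.24, with limma adjusted p-values from 0.620 to 0.849, so that the direction was not settled. *Cxcl16*, made by macrophages and endothelium for cells bearing *Cxcr6*, was at 12.58 ± 0.53 and 12.78 ± 0.14 (SD, n = 3), a difference of -0.20 (limma adjusted p = 0.686). *Cxcl13*, the B cell attractant, read 10.03, 7.21 and 5.63 at 12 months and 8.03, 7.42 and 8.45 at 3 months. Its SD of 2.23 (n = 3) at 12 months was the largest at either age among the 45 genes above background on all arrays. *Cxcl14* and *Cxcl17* differed by 0.58 and -0.46 (limma adjusted p-values of 0.416 and 0.324).

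The chemokines shared an order over the arrays of one age. Of the 20 chemokines above background on all 6 arrays, 16 (80.0%) had their highest 12-month signal on array 1, where 25.0% of all such genes did, and 12 their lowest on array 3. At 3 months 13 of 20 (65.0%) were highest on array 3, against 34.6% of all such genes. The median deviation of the 20 chemokines from their own 12-month mean was 0.65, -0.15 and -0.54 on arrays 1, 2 and 3. For the 25 interleukins, receptors and inhibitors above background on all arrays it was 0.02, 0.12 and -0.14. The within-age SD was above 1 for 5 of the 20 chemokines at 12 months and 4 at 3 months. Without 12-month array 1 the median difference of all 70 genes was -0.48 and 22 passed the fold criterion, 6 of them higher and 16 lower, where 18% of all tested probes passed. Without 12-month array 3 the median was 0.0055.

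**Figure D3:**
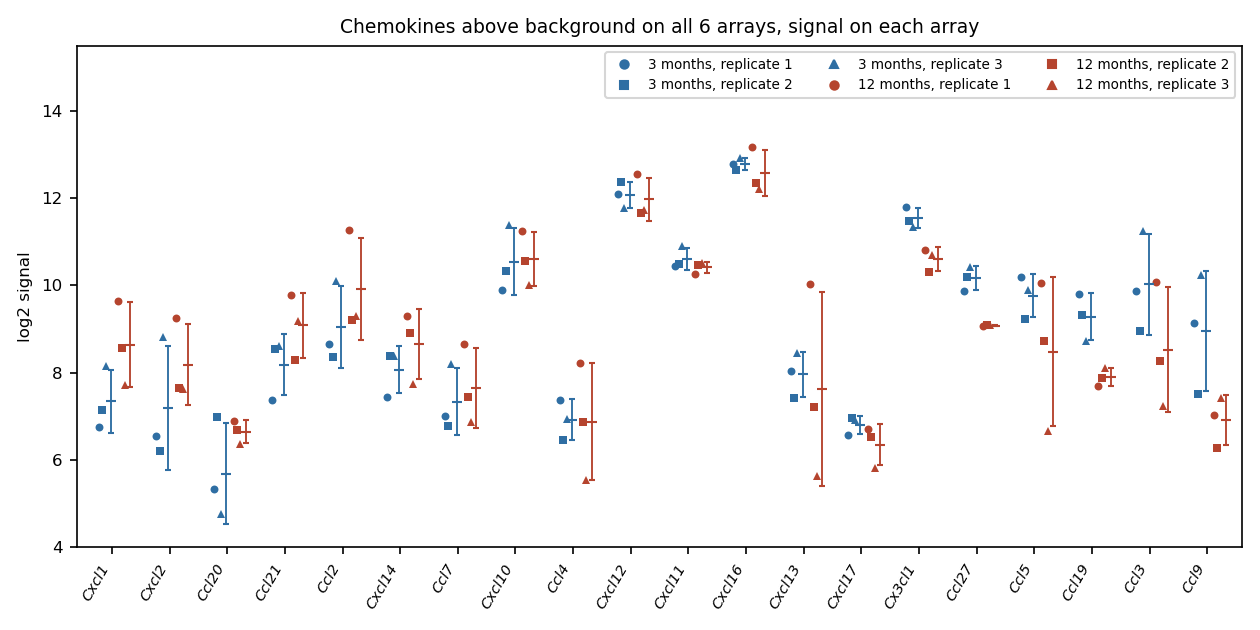
Log2 signal on each array for the 20 chemokines above background on all 6 arrays, ordered by age difference from the highest to the lowest, with 3 months in blue and 12 months in red. Symbols give the replicate, and the bar beside them the mean and SD of 3 arrays. Red circles (12-month array 1) are the highest red points for 16 genes, and blue triangles (3-month array 3) the highest blue points for 13.

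The sum of the macrophage markers was also highest on 12-month array 1 and 3-month array 3, but it rests mostly on *Lyz2*, the lysozyme of macrophages. The summed signal of 14 macrophage markers had a log2 value of 16.38, 14.60 and 15.22 on the 12-month arrays 1 to 3 and of 15.97, 14.97 and 16.32 on the 3-month arrays 1 to 3. All 14 had probes and 11 were tested. Of these 10 had a negative difference, where 56.5% of all tested genes had one. The median was -0.66, and none passed either threshold, where 4.88% of all tested genes passed the adjusted one as higher and 2.98% as lower. Among the 11 tested, 9 were highest at 12 months on array 1, and 6, *Lyz2* among them, were highest at 3 months on array 3. The other 5, the complement genes *C1qa*, *C1qb* and *C1qc* with *Fcgr3a* and *Mrc1*, were highest at 3 months on array 1. The stellate, endothelial and duct sums were also highest at 12 months on array 1. The macrophage markers *Cd163*, *Itgam* and *Marco* were above background on at most 2 arrays, whereas the 11 tested ones were on all 6. The sum of 12 T cell markers was 11.40 to 12.16 at 12 months and 11.84 to 13.15 at 3 months, and *Cd4* was above background on no array. Of 10 tested T cell markers 0 passed the adjusted threshold, where 4.88% of all tested genes were higher and 2.98% lower. By the fold criterion 1 was lower, against 9.64% of all tested genes. It was *Cd8b* at -1.34 (limma adjusted p = 0.0999), without overlap. The sum of 6 B cell markers was 7.85 to 8.28 at 12 months and 8.75 to 8.79 at 3 months, and no B cell marker except *Pax5* was above background on a 12-month array. For 7 granulocyte and mast cell markers it was 9.89 to 12.28 and 11.12 to 11.53. The part of these cell types in the chemokine values was not tested, and in whole islets fewer cells of a type and less RNA per cell cannot be told apart.

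Of the tissue cells, 7 tested stellate and mesenchymal markers were all positive, where 4870 of 11188 tested genes were, with a median of 1.46. By the fold criterion 5 were higher and at the adjusted threshold 1 was, against 9.81% and 4.88% of all tested genes. *Pdgfrb*, a receptor of pericytes and stellate cells, rose by 1.68 (limma adjusted p = 0.0453, SE 0.38). The summed signal of the list, without *Des*, which had no value on 3-month array 3, was 14.69 to 16.01 at 12 months and 13.28 to 14.10 at 3 months. The endothelial list was at 15.06 to 15.82 and 15.87 to 16.25. Of 7 tested genes 5 were negative, where 56.5% of all tested genes were, and the median was -0.75. *Cldn5*, a tight junction protein of endothelium, fell by 2.31 (limma SE 0.43, adjusted p = 0.0271). By the fold criterion 3 of the 7 were lower and 1 higher, against 9.64% and 9.81% of all tested genes. Besides *Cldn5* the lower ones were *Tek* at -1.14 (limma adjusted p = 0.0720) and *Cdh5* at -2.11 (limma adjusted p = 0.0515). *Cdh5* was above background on no 12-month array and was tested through the 3-month arrays alone. *Pecam1*, an adhesion molecule of endothelium, was the higher one, at 1.23 (limma adjusted p = 0.124), without overlap. *Pdgfrb* and *Cldn5* kept the call without 12-month array 2 or 3-month array 2 and lost it without any of the others. Neither sum overlapped between the ages, but the stellate sum rests largely on *Col3a1* and the endothelial sum on *Plvap*. Neither of these genes passed the adjusted threshold (limma adjusted p-values of 0.0670 and 0.194). The part of these cells in the values of *Il6r*, *Il33* and *Cx3cl1* was not tested. The sum of 6 duct markers was 15.28 to 16.00 at 12 months and 14.99 to 15.31 at 3 months. The 5 islet hormones were above background on all arrays, with a summed signal of 20.58 to 20.66 at 12 months and 20.35 to 20.56 at 3 months. The hormone sums did not overlap, but the median difference of the list, 0.19, became -0.22 with the 75th percentile shift. The 9 acinar markers were above background on all arrays too, with a summed signal of 20.88 to 21.46 at 12 months and 20.93 to 21.34 at 3 months. Of these *Cel* and *Ctrb1* varied within an age, with SDs of 1.91 and 1.96 at 12 months and 1.39 and 1.64 at 3 months (n = 3). The SDs of the other acinar markers were at most 0.97.

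**Figure D4:**
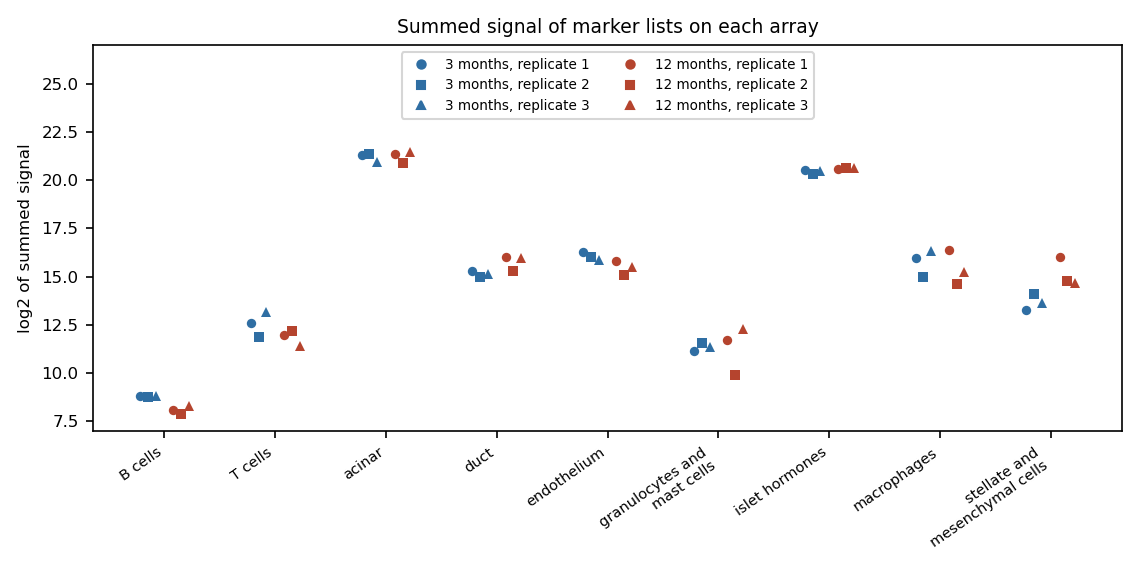
Log2 of the summed signal of the markers of each cell type on each array, with 3 months in blue and 12 months in red and symbols for the replicate. Sums of different lists are not comparable with each other. The macrophage sum runs from 14.60 to 16.38, and the stellate and mesenchymal sum does not overlap between the ages.

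The receptors of the chemokines were compared as a list of 23 genes, of which 20 had probes and 14 were tested. Of these 1 rose at the adjusted threshold and 0 fell, against 4.88% and 2.98% of all tested genes, with a median of -0.24. *Ackr3*, a scavenging receptor for *Cxcl12* and *Cxcl11* that does not signal through G proteins, was at 8.41 ± 0.77 at 12 months and 5.82 ± 0.20 at 3 months (SD, n = 3). It rose by 2.59 (limma SE 0.41, adjusted p = 0.0184), and it kept the call without any single array except 3-month array 1 or 3-month array 3. With normexp the rise was 1.70 (limma adjusted p = 0.0250). *Cxcr4*, the signalling receptor for *Cxcl12*, differed by -0.15 (limma adjusted p = 0.77). *Ccr1*, the receptor for *Ccl9*, *Ccl3* and *Ccl5*, passed the fold criterion at -1.59 (limma adjusted p = 0.130). It was at 7.29 ± 0.51 and 8.88 ± 1.20 (SD, n = 3), and its ages overlapped.

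For the other pairs described here no receptor was called. *Cxcr2*, *Cxcr3*, *Cx3cr1* and *Ccr7* differed by -0.47, -0.04, -0.12 and -0.34, the last 2 being above background on 2 of the 12-month arrays. *Ccr2*, at -0.43, was above background on all 3-month arrays and no 12-month array, and its ages overlapped. *Cxcr6* and *Ccr6* differed by 0.09 and 0.22. The limma adjusted p-values of these 7 ran from 0.346 to 0.964. The partners of both called chemokines were at the detection limit, since *Xcr1* was above background on no array and *Ccr10* on a single 3-month array.

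Downstream of *Il6r*, a signalling chain of the receptor activates JAK kinases and STAT3, and SOCS proteins shut the signal off. *Il6st*, which encodes gp130, was above background on none of the 6 arrays with the probe used here, so that the partner of *Il6r* has no measured level. Of 23 JAK, STAT and SOCS genes 17 were tested, with a median of -0.03. At the adjusted threshold 1 was higher and 1 lower, against 4.88% and 2.98% of all tested genes. *Jak2*, a kinase of cytokine receptors, was at 8.97 ± 0.21 at 12 months and 7.30 ± 0.31 at 3 months (SD, n = 3), a rise of 1.66 (limma SE 0.27, adjusted p = 0.0193). *Socs3*, the inhibitor that STAT3 induces, was at 6.79 ± 0.11 and 8.06 ± 0.35 (SD, n = 3), and fell by 1.27 (limma SE 0.26, adjusted p = 0.0368). *Jak2* kept the call without 12-month array 2 or 3-month array 2, and *Socs3* without 12-month array 2, and both lost it without any of the others. *Pias1* and *Socs1*, inhibitors of STATs and of JAK kinases, passed the fold criterion at 1.49 and -1.18 (limma adjusted p-values of 0.0759 and 0.118). *Stat3* itself differed by 0.65 (limma adjusted p = 0.210) and *Jak1* by 0.62 (limma adjusted p = 0.232).

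Interleukin-1 and the related interleukins 18, 33 and 36 signal through MyD88, IRAK kinases and the IKK complex to NF-kB. Of 25 such genes 16 were tested. At the adjusted threshold 1 was higher and 0 lower, against 4.88% and 2.98% of all tested genes. *Chuk*, the kinase IKKα of that complex, was at 10.96 ± 0.21 at 12 months and 8.44 ± 0.44 at 3 months (SD, n = 3), a rise of 2.52 (limma SE 0.30, adjusted p = 0.00904) that passed the adjusted threshold without any single array. *Irak1*, a kinase recruited by MyD88, passed the fold criterion at 1.29 (limma adjusted p = 0.0729). *Ikbkb*, the other kinase of the complex, differed by -0.70 (limma adjusted p = 0.116), and *Rela* by -0.41 (limma adjusted p = 0.330). *Myd88* differed by -0.22, and *Nfkbia*, an inhibitor that NF-kB itself induces, by 0.01, with limma adjusted p-values of 0.507 and 0.982.

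Of 13 genes that cytokines induce in islets, 8 were tested. At the adjusted threshold 1 was higher, against 4.88% of all tested genes. *Sod2*, the mitochondrial superoxide dismutase, rose by 1.48 (limma SE 0.30, adjusted p = 0.0355), a call kept without 12-month array 2 and lost without any other single array. *Nos2*, the inducible nitric oxide synthase, was above background on a single 3-month array and no 12-month array, and *Ptgs2* on no array. *Icam1* and *Irf1* differed by 0.21 and 0.13 (limma adjusted p-values of 0.811 and 0.772). Of 27 other cytokines and cytokine receptors 14 were tested and 1 passed as higher, again against 4.88% of all tested genes. It was the interferon receptor chain *Ifnar1*, which rose by 1.66 (limma SE 0.35, adjusted p = 0.0383). That call likewise held without 12-month array 2 and was lost without any of the others. With the 75th percentile shift it was lost too, at 1.43 (limma adjusted p = 0.0632). *Tnf*, the partner of interleukin-1 in islet inflammation, differed by -0.48 (limma adjusted p = 0.656), and *Ifng* was above background on no array.

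**Figure D5:**
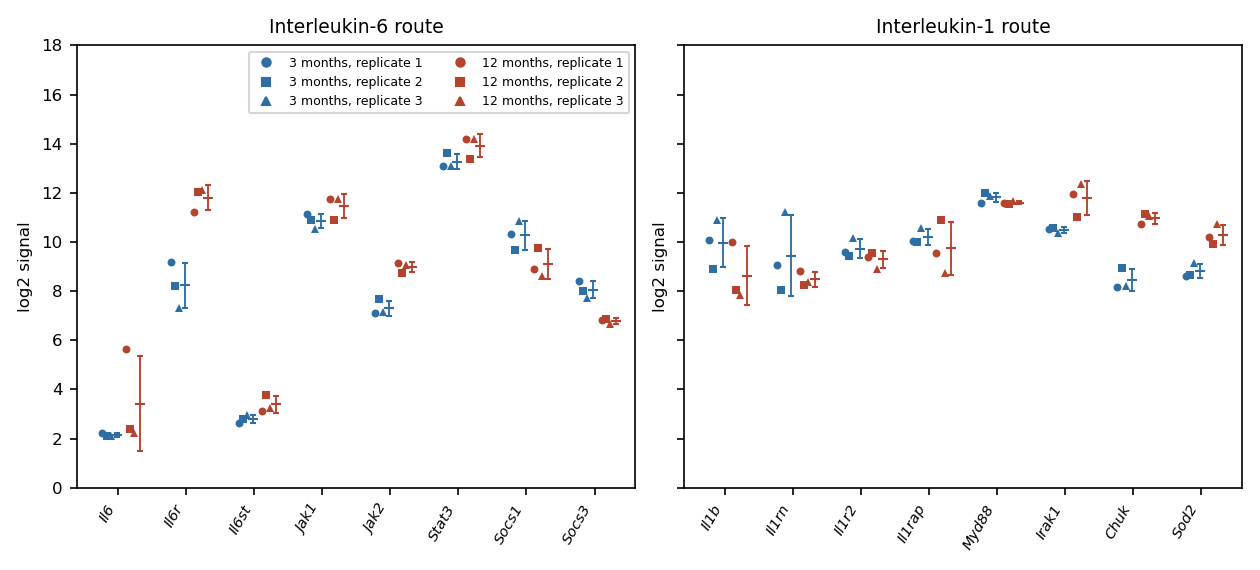
Log2 signal on each array for genes of the interleukin-6 route (left) and the interleukin-1 route (right), with 3 months in blue and 12 months in red. Symbols give the replicate, and the bar beside them the mean and SD of 3 arrays. *Il6* and *Il6st* lie near the detection limit, *Il6r*, *Jak2*, *Chuk* and *Sod2* are higher at 12 months without overlap, and *Il1b* and *Il1rn* overlap.

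The promoters were examined because NF-kB is the shared inducer of many chemokines. A link between the matches and the order of the chemokines over the arrays was not tested. RefSeq promoters of GRCr8, from 250 bases before to 50 bases after the start, were found for 72 of the 90 genes. A match to the NF-kB consensus of 10 bases, on either strand, lay in 8 of 26 chemokine promoters (30.8%), in 5 of 46 promoters of the other genes (10.9%) and in 8.16% of the promoters of 27457 genes. A match is a description of the letters and does not show that the factor binds. The 8 chemokines with a match before the start are shown with 18 bases on each side, on the strand of the gene, and capitals mark the matches. Matches of the 2 strands overlap in *Cxcl1*, *Cxcl2*, *Cxcl6* and the second stretch of *Cxcl10*.
Cxcl1 (chr14:17479377-17479423, minus strand): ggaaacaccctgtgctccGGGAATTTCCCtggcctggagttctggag
Cxcl2 (chr14:17467301-17467347, minus strand): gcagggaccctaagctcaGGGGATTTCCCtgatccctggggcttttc
Cxcl6 (chr14:17596477-17596523, minus strand): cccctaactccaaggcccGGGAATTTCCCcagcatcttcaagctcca
Cxcl10 (chr14:15988861-15988966, plus strand): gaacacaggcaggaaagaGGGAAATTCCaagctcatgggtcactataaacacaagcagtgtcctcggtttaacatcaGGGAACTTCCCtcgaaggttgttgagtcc
Cxcl11 (chr14:15973636-15973681, plus strand): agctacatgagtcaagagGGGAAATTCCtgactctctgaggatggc
Ccl7 (chr10:67514018-67514063, plus strand): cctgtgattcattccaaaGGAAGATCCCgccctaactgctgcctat
Ccl9 (chr10:68868956-68869001, minus strand): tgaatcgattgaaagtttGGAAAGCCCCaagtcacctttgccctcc
Ccl20 (chr9:91837052-91837097, plus strand): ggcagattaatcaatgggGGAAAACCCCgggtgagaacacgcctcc

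In *Cxcl1*, *Cxcl2*, *Cxcl6*, *Cxcl11* and *Ccl20* the first match began between 74 and 89 bases before the start. Their age differences were 1.30, 0.99, 0.54, -0.19 and 0.96, and none passed a threshold. *Ccl9*, with its match 106 bases before the start, differed by -2.05, so that genes with a match lay on both sides of 0. Of the genes with adjusted calls, *Il6r*, *Xcl1*, *Il1rapl2* and *Ccl27* had a promoter entry, and none of these 4 held a match.

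An interferon-response-like motif, TTTCNNTTTC on either strand, was searched because *Cxcl9*, *Cxcl10*, *Cxcl11* and *Il18bp* are induced by interferons. It lay in 7 of 72 promoters (9.72%) and in 4.12% of all. The stretch before *Ccl19* is shown because that gene had the lowest limma adjusted p among those past the fold criterion only.
Ccl19 (chr5:61761188-61761233, minus strand): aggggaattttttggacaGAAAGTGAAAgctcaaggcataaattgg
The other genes with this motif were *Cxcl10*, *Il18bp*, *Il1rap*, *Il36b*, *Il4* and *Il6st*, whose tested members differed by between -1.54 and 0.07. The interferon gamma motif TTCNNNGAA lay in 10 of 72 promoters (13.9%) and in 9.39% of all.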

How the data were processed

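RNA of rat islets was measured on 6 1-colour Arraystar/Agilent arrays. The scanner files that the authors deposited give spot intensity from Agilent Feature Extraction 11.0.1.1 (per the submitters' processing notes), already background-subtracted by the authors' scanner software and not normalized between arrays. The authors also deposited log2 values, quantile normalized, used as an alternative. Their quality flags and probe names were used as well.

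The log2 intensity was averaged over unflagged spots and quantile normalized. Probes well above background on at least 3 of 6 arrays were compared between ages with limma 3.58.1 in R 4.3.3 (lmFit and eBayes, two-sided, no block, Benjamini-Hochberg over 17941 tested probes). Genes were named through RefSeq accessions matched to a table of GRCr8; 14274 of 15321 mRNA probes matched. The array design uses another build, so coordinates are those of the promoter table only. A gene with several probes was represented by the one with the highest mean. Bounds compare the brighter age's mean with the higher of the detection floor and the probe's own signal on each dimmer array. Intervals are 95%.

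The members, the gene lists and the rule for naming genes were chosen with earlier results of these data known. The rule named members past a threshold, the 3 brightest tested members of each role, a fixed set of known islet cytokine genes, and called genes of the lists. Other genes are named to complete a family. Alternatives were a 75th percentile shift, normexp (offset 50), the authors' table, other filters, robust variances, replicate blocks, the methods' t-test and leaving out each array. The test was checked on simulated data whose noise was independent between probes and arrays, so that scan effects and shared array effects were not covered. Arrays have no read depth, and their number limits the precision.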

Additional observations from a re-analysis of the deposited data

How the results depend on the processing

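Against 6 genes at the adjusted threshold, 0 passed with the replicate block of 3 pairs, with the replicate block of numbered pairs only, with 4 arrays whose names end alike, and with the methods' t-test, unpaired or paired, after Benjamini-Hochberg adjustment. Of all tested probes 0.541%, 0.00%, 0.00%, 2.44% and 0.00559% passed there, against 8.37%. By the fold criterion these 5 settings gave 16, 15, 10, 12 and 6 genes, where 19.8%, 15.5%, 14.5%, 15.3% and 8.67% of the probes passed. At an adjusted p under 0.1, 12 genes passed, and 21.3% of the probes. Leaving out 1 array gave 0 to 5 genes and 1.16% to 12.1% of the probes. Against 15 genes and 22.0% of the probes by the fold criterion, normexp gave 7 and 11.7%, and leaving out 1 array gave 11 to 22 and 17.4% to 27.2%. The median difference of -0.19 lay between -0.48 and 0.0055 when arrays were left out in turn, and it was -0.44 with the 75th percentile shift and -0.11 with normexp. With that shift the medians of the B cell and acinar markers moved from -0.82 and 0.097 to -1.36 and -0.52, and with normexp that of the B cell markers was -0.37. The cause was not tested.

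The replicate numbers are not taken as pairing: the deviations of same-numbered arrays correlated at -0.01 and -0.31, those of the third pair, formed by elimination, at -0.26, and 0 arrays correlated best with their own number.

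Signs reversed for uncalled genes, and for none of the called ones. Under the 75th percentile shift *Il36rn* was at -0.068 and *Il2rg* at -0.058, and with normexp *Il36rn* was at -0.0032. With the replicate block of numbered pairs *Cxcl16* was at 0.060, *Il1rn* at 0.0045 and *Il33* at 0.20. With the 4 arrays *Cxcl12* was at 0.022, *Il33* at 0.49 and *Il2rg* at -0.082. Another probe put *Cxcl12* at 0.24. With 1 array left out *Cxcl10* ran from -0.26 to 0.49, *Cxcl12* from -0.39 to 0.052, *Il36rn* from -0.12 to 0.51, *Il33* from -1.35 to 0.25 and *Il2rg* from -0.045 to 0.63.

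*Il6r* passed the adjusted threshold under 11 of 17 alternatives, *Il20ra* under 7, *Ccl27* and *Il22ra2* under 6, and *Xcl1* and *Il1rapl2* under 5 of 16. With 1 array left out *Il1rapl2* and *Xcl1* passed in 2 of 6 fits, *Il22ra2* and *Il20ra* in 1 and *Ccl27* in 0. Of the genes of the lists, *Chuk* passed under 13 of 17 alternatives, *Ackr3* under 10, *Jak2*, *Cldn5* and *Pdgfrb* under 8, *Sod2* under 7, and *Socs3* and *Ifnar1* under 6. The detection limit for dim genes was higher on the 12-month arrays.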
